A study of Homo sapiens with 9 samples.

Results

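The 32 genes described here are known targets of p53, the transcription factor at the centre of the response to DNA damage, followed in MCF10A cells after knockdown of CHAF1B. They were taken by symbol from a list of known targets, chosen with earlier results of these data known. All 32 had a row in the table of 26186 genes and counts high enough to be among the 16235 genes tested. MCF10A is an established line of human mammary epithelial cells with basal features that does not form tumours. CHAF1B is a subunit of chromatin assembly factor 1, the complex that places histones on newly copied DNA. There were 3 groups with 3 libraries each. The shGFP group, the control, expressed a short hairpin RNA against green fluorescent protein, and the shCHAF1B-#1 and shCHAF1B-#2 groups each expressed a different hairpin against CHAF1B. The cells of all 9 libraries grew in medium with 5% horse serum, EGF at 20 ng/mL, insulin, cholera toxin and hydrocortisone. They had been infected with a pLKO.1 lentivirus and kept in 2 µg/mL puromycin from 24 hours after transduction, and polyadenylated RNA was collected on day 3 after infection, so the control shared medium, infection, selection and hairpin expression. The labels do not say whether the libraries of a group came from separate cultures, so p-values measure the spread between these libraries, which may be technical.

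In unstressed cells p53 is bound by MDM2, a ubiquitin ligase that sends it to the proteasome, and MDM2 is itself a p53 target, which closes a feedback loop. Once stabilised, p53 binds DNA as a tetramer and raises transcription of genes that halt the cell cycle, repair DNA, supply nucleotides, adjust metabolism or prepare cell death. In basal mammary epithelium the related factor p63 recognises a similar DNA element, and many p53 targets are transcribed there at a steady level without added damage.

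The p53 consensus element consists of a pair of adjoining sites of 10 bases, each with purines, then C, a pair of bases that are A or T, then G, then pyrimidines. RefSeq promoter windows on GRCh38.p14, from 250 bases before to 50 after each transcription start, were searched for the 20-base element with the C and G of both CNNG cores required and no spacer, and mismatches were counted at all other positions, the A or T pair included. The element reads the same on both strands, so one search covered both. RefSeq windows were matched by symbol for 25 of the 32 genes, with 36 windows in all, and GADD45A, PHLDA3, TP53INP1, TNFRSF10B, RRM2B, ASCC3 and FBXO22 were not matched. A match with at most 3 mismatches was found in 8 of the 25 genes, against 1.12% of all 35116 windows. With at most 2 mismatches it was found in 4 of the 25 genes, against 0.285% of windows. A gene was counted by its closest window, and some genes had several, while the background counts single windows, so these shares differ in unit. These 8 genes are well-studied p53 targets, and a match describes the letters only. The matches of 7 genes are shown because they lie before or across the start, with the element in capitals and 10 flanking bases on either side, 5′ to 3′ on the gene's strand.
DDB2: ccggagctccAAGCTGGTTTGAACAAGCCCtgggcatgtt
MDM2: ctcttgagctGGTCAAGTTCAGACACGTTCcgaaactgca
FAS: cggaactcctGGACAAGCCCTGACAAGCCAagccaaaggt
AEN: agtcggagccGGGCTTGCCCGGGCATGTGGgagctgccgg
SESN1: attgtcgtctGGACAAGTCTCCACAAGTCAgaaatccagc
FDXR: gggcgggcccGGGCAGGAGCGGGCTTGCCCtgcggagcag
RPS27L: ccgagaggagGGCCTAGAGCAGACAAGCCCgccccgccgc
The DDB2 stretch lies at chr11:47214959-47214998 on the plus strand and its element, with 1 mismatch, crosses the start. The MDM2 stretch, at chr12:68808913-68808952 on the plus strand, has 2 mismatches. The FAS stretch, at chr10:88991299-88991338, and the AEN stretch, at chr15:88621296-88621335, are both on the plus strand with 2 mismatches. SESN1 (chr6:109009008-109009047), FDXR (chr17:74872986-74873025) and RPS27L (chr15:63157517-63157556) are on the minus strand with 3 mismatches each. The windows follow RefSeq starts, some of which lie inside the GENCODE gene. The 8th match, in GDF15, lies after the start and is not shown.

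Library totals ranged from 24339914 to 31819468 counts, and single counts of the 32 genes from 245 for DRAM1 to 24406 for PERP. CHAF1B itself stood at 35.2, 41.0 and 36.8 CPM (counts normalised to library size, TMM-scaled) in the shGFP libraries, 2.56, 3.88 and 3.43 under shCHAF1B-#1, and 2.66, 3.89 and 3.07 under shCHAF1B-#2, so 8.82% and 8.54% of the control level remained. Marker sums in this paragraph are CPM on library totals without TMM scaling, unlike the values of single genes. On that scale 10 basal mammary epithelial markers summed to 12900 to 13900 CPM in shGFP and 11200 to 12300 CPM in the knockdown libraries. The gap between these ranges depends on the scaling and need not hold with TMM. Single basal markers went both ways on the log2 scale. KRT5 changed by -0.83 and -0.85 and KRT17 by -1.14 and -1.19, while LAMB3 changed by 1.47 and 1.36 and ITGB4 by 1.03 and 0.87. One library stood apart: shCHAF1B-#1 replicate 3 held 7910 counts over 10 B lymphocyte markers, 2664 of them from MS4A1, against 25 to 62 in the other 8 libraries. Where leaving this library out moved a call among the 32 genes, the value without it is given beside the result, as it is for several counts. Summed markers of other cell types were low but higher in the knockdown libraries: 45.3 to 48.7 CPM in shGFP and 54.1 to 57.5 CPM in the knockdown libraries for fibroblast markers (6 of 8 in the table), 4.09 to 4.73 and 10.4 to 12.4 CPM for endothelial markers (6 of 7), and 30.2 to 33.8 and 40.6 to 44.7 CPM for T lymphocyte and myeloid markers (4 of 9). The fibroblast sum was carried by FAP (27.25 to 40.7 and 42.3 CPM) and COL1A1 (7.69 to 14.15 and 13.4 CPM), while DCN fell from 9.38 to 1.65 and 1.94 CPM. The endothelial sum was carried by PECAM1. In the T lymphocyte and myeloid list the rise came mostly from CD14 (13.4 to 24.7 and 24.1 CPM). CSF1R changed little (16.6 to 18.3 and 17.1 CPM), and the T lymphocyte genes CD3D, CD3E, CD3G and CD2 were not in the table. The part of these other cell type markers in the results was not tested. In RNA from whole cultures, fewer cells of a type and less RNA per cell cannot be told apart.

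The p53 targets moved in both directions, and more of them were lower than higher after CHAF1B knockdown. Because the list was chosen with earlier results of these data known, the shares below describe it and are no test of it. Under shCHAF1B-#1, 20 of the 32 genes (62.5%) fell and 6 (18.8%) rose at an adjusted p under 0.05 in edgeR's quasi-likelihood test, beside 25.2% and 27.9% of all genes tested, so 53.2% of all genes passed in either direction. The median log2 fold change of the 32 was -0.20, and that of all genes tested was -0.0025. Under shCHAF1B-#2, 17 of the 32 (53.1%) fell and 5 (15.6%) rose, beside 24.6% and 26.7% of all genes tested (51.3% in either direction), with a median of -0.16 against -0.014. Without the library that held B lymphocyte transcripts, 18 fell and 6 rose under shCHAF1B-#1, beside 22.6% and 25.7% of all genes then tested, and the median was -0.19. Most changes were small: 4 genes fell (CCNG1, DRAM1, TP53I3 and FDXR) and 1 rose (TP53INP1) by at least 1.5-fold under shCHAF1B-#1, beside 7.64% and 12.1% of all genes tested. The same 5 genes passed that size under shCHAF1B-#2, beside 7.56% and 10.8% of all genes tested. FDXR fell short of 1.5-fold under shCHAF1B-#1 when replicate 3 of that group was left out (-0.56). In the tests of both hairpins 16 of the genes fell and 5 rose, beside 20.8% and 23.8% of all genes tested, but both tests use the same 3 shGFP libraries, so a shared direction is no independent repeat. When shCHAF1B-#1 replicate 3 was left out, PPM1D, XPC and ANKRA2 no longer passed under that hairpin and BTG2 did. Over single libraries, all 6 knockdown libraries lay below all 3 shGFP libraries for 16 of the 32 genes, beside 22.7% of all genes tested, and above them for 5, beside 25.8%. The groups overlapped for the other 11. Without shCHAF1B-#1 replicate 3, 17 lay below and 5 above, beside 23.6% and 26.4% of all genes.

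**Figure D1:**
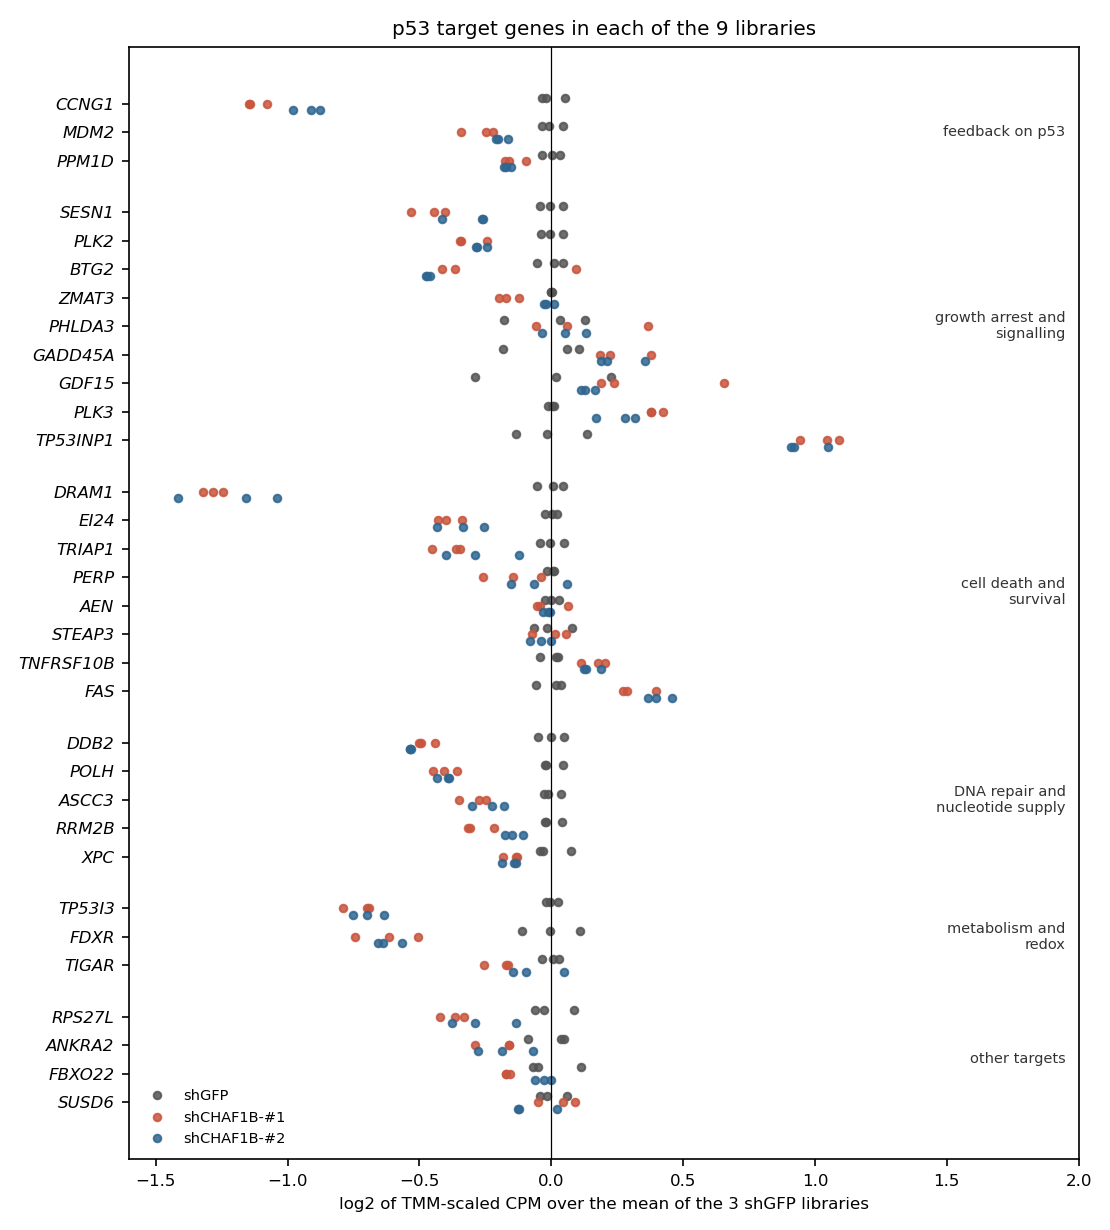
Each of the 32 p53 targets in each of the 9 libraries, as the log2 of its TMM-scaled CPM over the mean of the 3 shGFP libraries (x axis), grouped by role, with 1 point per library. CCNG1 and DRAM1 lie farthest to the left and TP53INP1 farthest to the right in all 6 knockdown libraries, and most other genes lie within 0.5 of the control.

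**Figure D2:**
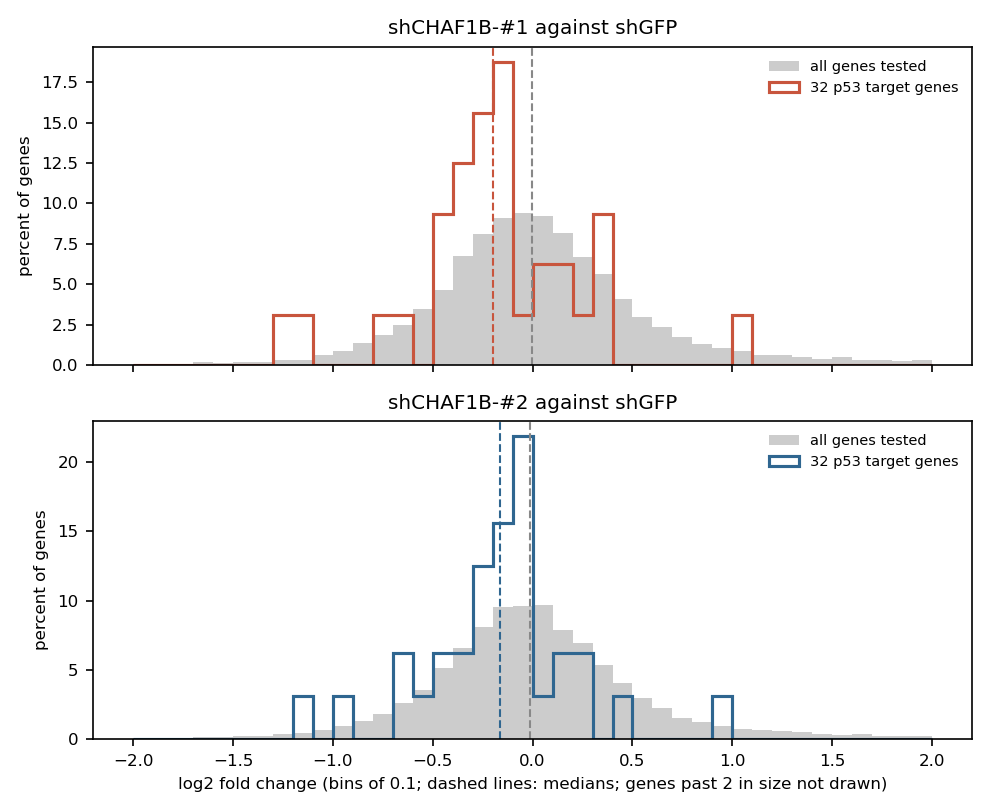
Percent of genes (y axis) by log2 fold change against shGFP (x axis, bins of 0.1) for all genes tested (grey) and the 32 p53 targets (outline), for each hairpin, with medians as dashed lines. The medians of the targets, -0.20 and -0.16, lie to the left of those of all genes, -0.0025 and -0.014.

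All 3 genes that feed back on p53 fell under each hairpin, beside 25.2% and 24.6% of all genes tested, and 3 genes are too few to set against a share. CCNG1 (chr5:163437569-163446151, plus strand, GRCh38) encodes cyclin G1, which recruits the phosphatase PP2A to MDM2. It stood at 388, 384 and 407 CPM in shGFP, at 178, 186 and 178 under shCHAF1B-#1 and at 209, 199 and 214 under shCHAF1B-#2. The groups were far apart, and the change was -1.12 ± 0.046 (log2 fold change ± SE, n = 3 libraries a group, adjusted p = 3.0e-10 by edgeR) under shCHAF1B-#1 and -0.92 ± 0.046 (adjusted p = 2.1e-09) under shCHAF1B-#2. MDM2 (chr12:68808176-68850686, plus strand) had 295.5, 289.5 and 306 CPM in shGFP, 234, 255 and 250 under shCHAF1B-#1 and 265, 258 and 257 under shCHAF1B-#2. Every knockdown library was below every control library, but the distance was small: -0.27 ± 0.046 (adjusted p = 2.1e-04) and -0.19 ± 0.046 (adjusted p = 3.1e-03). PPM1D, the phosphatase WIP1 that removes activating phosphates from p53 and its kinases, fell least, with changes of -0.14 ± 0.052 (adjusted p = 0.033) and -0.17 ± 0.053 (adjusted p = 0.017). Its shGFP libraries lay between 27.9 and 29.3 CPM and its knockdown libraries between 25.3 and 26.75, so the groups did not overlap. The call under shCHAF1B-#1 was lost without the library that held B lymphocyte transcripts (adjusted p = 0.121), and also without shCHAF1B-#1 replicate 2 (0.113), shGFP replicate 2 (0.0708) or shGFP replicate 3 (0.0932), and the call under shCHAF1B-#2 without shGFP replicate 3 (0.0545).

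Of 9 genes of growth arrest and signalling, 4 rose and 3 fell under shCHAF1B-#1, and 3 rose and 3 fell under shCHAF1B-#2. The shares of all genes tested were 27.9% and 25.2% for the first hairpin and 26.7% and 24.6% for the other. A group of 9 genes is too small to set against a share. When shCHAF1B-#1 replicate 3 was left out, 4 rose and 4 fell under that hairpin, beside 25.7% and 22.6% of all genes then tested. TP53INP1, which encodes a stress protein that promotes p53 phosphorylation and autophagy, had the largest rise of the 32 genes. It stood at 25.0, 23.0 and 27.75 CPM in shGFP, at 48.5, 52.1 and 53.7 under shCHAF1B-#1 and at 52.2, 47.4 and 47.75 under shCHAF1B-#2. All 6 knockdown values were well above the 3 control values, a rise of 1.03 ± 0.072 (adjusted p = 5.3e-08) and 0.96 ± 0.072 (adjusted p = 1.2e-07). PLK3, a polo-like kinase of the stress response, had 37.3, 37.7 and 37.9 CPM in shGFP, and 48.9, 50.4 and 49.0 and then 45.7, 46.9 and 42.3 CPM under the hairpins. The groups did not overlap, and the log2 fold changes were 0.39 ± 0.051 (adjusted p = 2.2e-05) and 0.26 ± 0.052 (adjusted p = 9.0e-04). Its relative PLK2, a kinase of centriole duplication, went the other way, from 81.8 to 86.7 CPM in shGFP down to 66.2 to 71.1 under shCHAF1B-#1 and 69.1 to 71.15 under shCHAF1B-#2. Its log2 fold changes were -0.31 ± 0.047 (adjusted p = 8.7e-05) and -0.27 ± 0.047 (adjusted p = 3.0e-04). SESN1, a sestrin that restrains mTORC1, fell as well, from 80.0, 82.3 and 85.2 CPM in shGFP to 62.4, 60.6 and 57.1 under shCHAF1B-#1 and to 68.9, 61.9 and 68.7 under shCHAF1B-#2. The changes of SESN1 were -0.46 ± 0.055 (adjusted p = 1.0e-05) and -0.31 ± 0.055 (adjusted p = 3.2e-04), with no overlap between control and knockdown libraries.

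GADD45A, GDF15 and PHLDA3 had the widest spread of the 32 genes between the shGFP libraries. GADD45A, a growth arrest protein that binds PCNA, had 39.1, 37.8 and 31.96 CPM in shGFP against 41.26 to 47.2 in the 6 knockdown libraries, with no overlap, and rose by 0.26 ± 0.079 (adjusted p = 0.012) and 0.25 ± 0.080 (adjusted p = 0.017). Without shGFP replicate 3, its adjusted p was 0.0568 and 0.0754, without shCHAF1B-#1 replicate 1 it was 0.0521 for that hairpin, and without shCHAF1B-#2 replicate 3 it was 0.0652 for the other. GDF15, a secreted stress cytokine, had 35.9, 41.5 and 29.01 CPM in shGFP, 55.8, 40.4 and 41.8 under shCHAF1B-#1 and 38.3, 38.7 and 39.8 under shCHAF1B-#2. The groups overlapped. GDF15 passed the test under shCHAF1B-#1 (0.37 ± 0.13, adjusted p = 0.023) and not under shCHAF1B-#2 (0.14 ± 0.13, adjusted p = 0.40), and the first call was lost without shGFP replicate 3 (adjusted p = 0.103), without shGFP replicate 1 (adjusted p = 0.0549) or without shCHAF1B-#1 replicate 1 (adjusted p = 0.111). PHLDA3, a competitor of AKT at membranes, ran from 129.5 to 160.3 CPM in shGFP and from 141 to 189 CPM in the knockdown libraries, and did not pass (adjusted p = 0.27 and 0.70). The genes have in common that shGFP replicate 3 was their lowest control library and shCHAF1B-#1 replicate 1 their highest library of all. Within shGFP, the coefficient of variation was 17.7% for GDF15, 10.5% for GADD45A and 10.7% for PHLDA3, against a median of 3.17% over the 32 genes. ZMAT3, a zinc finger protein that binds RNA, was at the other end with 0.206%: its shGFP libraries held 156.4, 155.9 and 155.8 CPM. It fell under shCHAF1B-#1 to 136, 143 and 139 CPM (-0.16 ± 0.041, adjusted p = 3.8e-03) and did not pass under shCHAF1B-#2 (154, 157 and 153 CPM, adjusted p = 0.82).

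BTG2, an antiproliferative cofactor of mRNA deadenylation, depended on a single library. It stood at 85.9, 89.9 and 92.0 CPM in shGFP and at 64.2, 64.4 and 64.9 CPM under shCHAF1B-#2, a change of -0.47 ± 0.10 (adjusted p = 0.0015). Under shCHAF1B-#1 replicates 1 and 2 held 67.0 and 69.3 CPM, close to the other hairpin, while replicate 3 held 95.4 CPM, the highest of all 9 libraries. Over the 3 replicates BTG2 did not pass (-0.21 ± 0.10, adjusted p = 0.093), and without replicate 3 it did (-0.39, adjusted p = 4.2e-05). Replicate 3 is the library with 7910 counts of B lymphocyte markers. Set against the mean of replicates 1 and 2, it was higher by 0.48 on the log2 scale for BTG2, the largest such difference among the 32 genes, whose median was -0.058. BTG2 is known to be transcribed in lymphocytes, and the part of the B lymphocyte transcripts in its value was not tested.

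**Figure D3:**
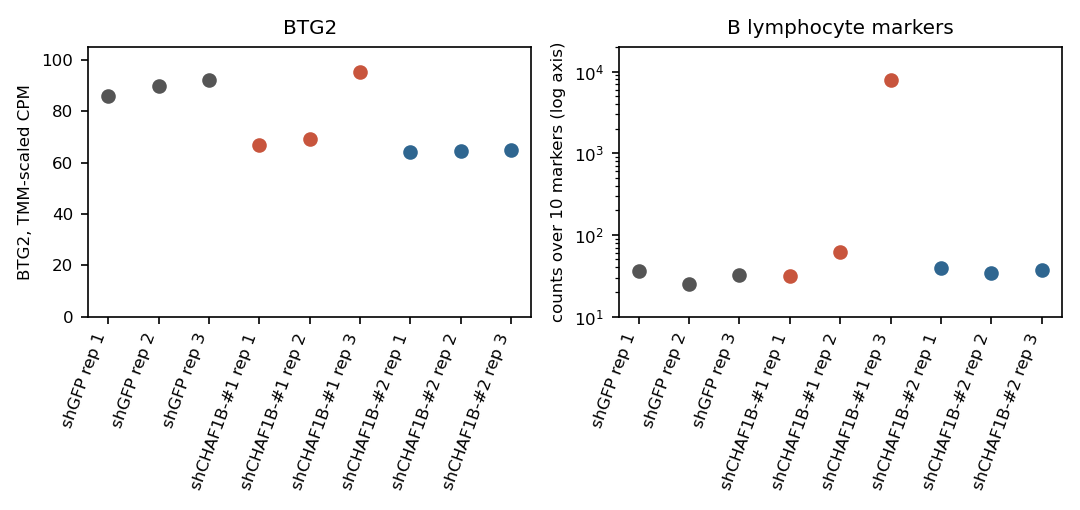
BTG2 in TMM-scaled CPM (left, y axis from 0) and the counts summed over 10 B lymphocyte markers (right, log axis) in each of the 9 libraries, 1 point per library. The library shCHAF1B-#1 replicate 3 is the highest in both panels, with 95.4 CPM of BTG2 and 7910 marker counts.

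Of 8 genes of cell death and survival, 2 rose (the receptors FAS and TNFRSF10B) and 3 fell under each hairpin, beside 27.9% and 25.2% of all genes tested for shCHAF1B-#1 and 26.7% and 24.6% for shCHAF1B-#2. FAS, a receptor that starts apoptosis when bound by its ligand, had 105.8, 100.5 and 107.2 CPM in shGFP, 127.6, 137.7 and 126.3 under shCHAF1B-#1 and 143.5, 134.9 and 137.6 under shCHAF1B-#2. All knockdown libraries exceeded all control libraries, by 0.32 ± 0.049 (adjusted p = 9.3e-05) and 0.41 ± 0.049 (adjusted p = 1.2e-05). TNFRSF10B, a receptor for TRAIL also called DR5, had 401.5, 418.7 and 421.9 CPM in shGFP and 448 to 477 in the knockdown libraries. Its rise was small, 0.17 ± 0.044 (adjusted p = 6.3e-03) and 0.15 ± 0.044 (adjusted p = 0.013), and under shCHAF1B-#2 it did not pass without shGFP replicate 1 (adjusted p = 0.0679) or without shCHAF1B-#2 replicate 1 (adjusted p = 0.0762).

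DRAM1 (chr12:101877351-102012130, plus strand), a lysosomal membrane protein that links p53 to autophagy, had the largest fall of the 32 genes. Its shGFP libraries held 24.7, 25.8 and 26.45 CPM, those of shCHAF1B-#1 10.8, 10.3 and 10.5 and those of shCHAF1B-#2 12.5, 9.62 and 11.5. The knockdown libraries lay far below the control, with -1.28 ± 0.087 (adjusted p = 4.0e-08) and -1.20 ± 0.087 (adjusted p = 9.0e-08). EI24, a protein of the endoplasmic reticulum, stood at 292, 301 and 298 CPM in shGFP, 235, 225 and 220.4 under shCHAF1B-#1 and 235, 219.8 and 249 under shCHAF1B-#2, a change of -0.39 ± 0.050 (adjusted p = 2.0e-05) and -0.34 ± 0.050 (adjusted p = 7.0e-05). TRIAP1, a small mitochondrial protein that restrains apoptosis, stood at 81.8, 87.2 and 84.1 CPM in shGFP, 65.65, 66.3 and 61.7 under shCHAF1B-#1 and 69.1, 63.9 and 77.5 under shCHAF1B-#2. Its changes were -0.39 ± 0.064 (adjusted p = 1.9e-04) and -0.27 ± 0.064 (adjusted p = 3.3e-03), and none of these falls involved overlapping groups. The remaining death genes did not pass under either hairpin: PERP, a desmosome protein (adjusted p = 0.068 and 0.54), AEN, an apoptosis-enhancing nuclease (0.89 and 0.80), and STEAP3, an endosomal iron reductase (1.0 and 0.55). PERP passed under shCHAF1B-#1 in edgeR without shCHAF1B-#1 replicate 1 (adjusted p = 0.0197) or shCHAF1B-#2 replicate 3 (0.0347). With all libraries kept, PERP also passed under that hairpin with upper-quartile scaling (0.0256) or a filter of 1 CPM in 3 libraries (0.043). A fit of only the compared groups gave 0.0323. AEN holds 1 of the closer matches to the p53 element shown above, and its libraries lay between 64.5 and 69.9 CPM in all 3 groups.

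**Figure D4:**
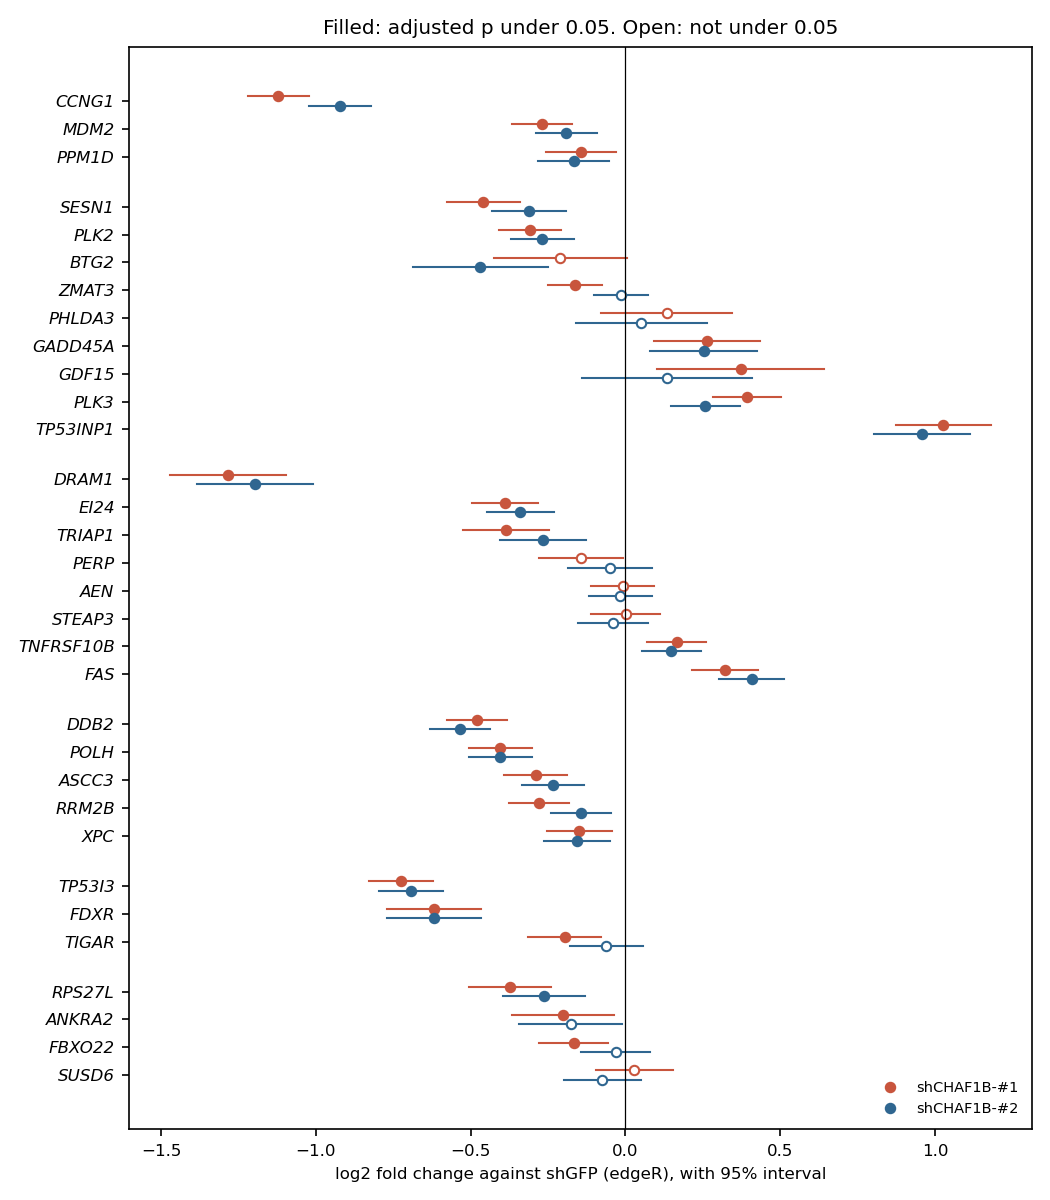
Change of every listed p53 target from shGFP (x axis, log2) with its 95% interval from edgeR, for shCHAF1B-#1 (red) and shCHAF1B-#2 (blue). Filled points have an adjusted p under 0.05. All genes of feedback and of DNA repair and nucleotide supply are filled and left of 0, while growth arrest and cell death hold filled points on both sides.

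All 5 genes of DNA repair and nucleotide supply fell under each hairpin, beside 25.2% and 24.6% of all genes tested, and without shCHAF1B-#1 replicate 3 all but XPC did under that hairpin. DDB2, the subunit that recognises ultraviolet damage in chromatin, had 89.05, 92.0 and 95.2 CPM in shGFP, 65.3, 67.8 and 65.0 under shCHAF1B-#1 and 63.5, 63.5 and 63.8 under shCHAF1B-#2. The groups were clearly apart, at -0.48 ± 0.044 (adjusted p = 8.7e-07) and -0.53 ± 0.045 (adjusted p = 3.5e-07). POLH, the polymerase that copies past ultraviolet lesions, fell from 62.35, 62.45 and 65.4 CPM to 47.8, 46.5 and 49.5 and to 48.3, 48.4 and 46.9 CPM. Its log2 fold change was -0.40 ± 0.047 under each hairpin (adjusted p = 8.0e-06 and 8.8e-06). RRM2B, the ribonucleotide reductase subunit that serves non-dividing cells, fell from 256, 255 and 266.5 CPM to 208, 223 and 209 under shCHAF1B-#1 and to 240.4, 229 and 233 under shCHAF1B-#2. The changes were -0.28 ± 0.045 (adjusted p = 1.4e-04) and -0.14 ± 0.045 (adjusted p = 0.016), and the second was lost without shGFP replicate 3 (adjusted p = 0.0614) or without shCHAF1B-#2 replicate 2 (adjusted p = 0.05). ASCC3, a helicase of alkylation repair and ribosome rescue, fell (-0.29 ± 0.047, adjusted p = 1.5e-04, and -0.23 ± 0.047, adjusted p = 8.8e-04), from 269 to 281 CPM in shGFP to 215 to 242 in the knockdown libraries. XPC, which detects distorted DNA in nucleotide excision repair, had the smallest fall of the group under shCHAF1B-#1, -0.15 ± 0.049 (adjusted p = 0.021), and -0.16 ± 0.050 (adjusted p = 0.018) under shCHAF1B-#2. Its libraries lay between 53.6 and 58.1 CPM in shGFP and between 48.5 and 50.5 in the knockdown groups. The XPC calls were lost without shGFP replicate 2 (adjusted p = 0.0953 and 0.0827), the first also without shCHAF1B-#1 replicate 3 (0.0868) or replicate 2 (0.0519), and the second without shCHAF1B-#2 replicate 2 (0.059). Further, 23.8% of its exon bases overlap a gene on the opposite strand, whose reads cannot be told apart from its own in an unstranded library.

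In metabolism and redox, TP53I3 and FDXR were lower under each hairpin and TIGAR under shCHAF1B-#1. TP53I3 (chr2:24077433-24085861, minus strand) encodes a quinone oxidoreductase, also known as PIG3, that generates reactive oxygen. It had 97.3, 98.1 and 100.2 CPM in shGFP, 61.0, 60.65 and 57.0 under shCHAF1B-#1 and 60.75, 58.6 and 63.5 under shCHAF1B-#2. The knockdown libraries formed a narrow range below the control, at -0.73 ± 0.048 (adjusted p = 3.1e-08) and -0.69 ± 0.048 (adjusted p = 5.6e-08). FDXR, the mitochondrial ferredoxin reductase, had 51.1, 55.3 and 47.5 CPM in shGFP, 36.2, 33.5 and 30.6 under shCHAF1B-#1 and 32.6, 34.7 and 33.0 under shCHAF1B-#2. No knockdown library reached the lowest control, and the change was -0.62 ± 0.070 for each hairpin (adjusted p = 5.8e-06 and 6.6e-06). TIGAR, a phosphatase that lowers glycolytic flux, had 83.8, 87.75 and 86.3 CPM in shGFP, 76.4, 76.6 and 72.1 under shCHAF1B-#1 and 80.3, 77.7 and 88.95 under shCHAF1B-#2. It passed under shCHAF1B-#1 (-0.20 ± 0.055, adjusted p = 8.1e-03) and not under shCHAF1B-#2 (-0.06 ± 0.055, adjusted p = 0.37), and 42.6% of its exon bases overlap another annotated gene.

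Of the 4 remaining targets, RPS27L, a ribosomal protein paralog that binds MDM2, fell under each hairpin, from 131, 135 and 145.5 CPM in shGFP to 106.5, 109 and 102 and to 112, 106 and 125 CPM. The groups did not overlap, and the changes were -0.37 ± 0.062 (adjusted p = 1.8e-04) and -0.26 ± 0.062 (adjusted p = 2.7e-03). FBXO22, an F-box subunit of a ubiquitin ligase, passed under shCHAF1B-#1 (-0.17 ± 0.052, adjusted p = 0.015) and not under shCHAF1B-#2 (-0.03 ± 0.052, adjusted p = 0.65). That call was lost without shGFP replicate 3 (adjusted p = 0.0753). ANKRA2, an ankyrin repeat protein, had log2 fold changes of -0.20 ± 0.077 (adjusted p = 0.041) and -0.18 ± 0.077 (adjusted p = 0.071), and the first was lost without any 1 of the shCHAF1B-#1 libraries (adjusted p = 0.0536 to 0.136), shCHAF1B-#2 replicate 2 (0.0513), shGFP replicate 2 (0.106) or shGFP replicate 3 (0.114), while the second passed without shCHAF1B-#2 replicate 3 (0.0301). ANKRA2 under shCHAF1B-#2 also passed in edgeR with upper-quartile scaling (adjusted p = 0.036) or a filter of 1 CPM in 3 libraries (0.046). SUSD6, a sushi-domain membrane protein, did not pass (adjusted p = 0.71 and 0.31). Shared exon bases touch several of these values: 16.2% of those of FBXO22 overlap NRG4, 9.18% of those of ANKRA2 overlap UTP15, and 8.93% of those of FAS overlap ACTA2.

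The hairpins were then compared with each other. None of the 32 genes and none of the 16235 genes tested (0%) differed between shCHAF1B-#2 and shCHAF1B-#1 at an adjusted p under 0.05, by edgeR or by DESeq2. At an unadjusted p under 0.05 in edgeR, 8 of the 32 genes (BTG2, CCNG1, FBXO22, PLK3, RRM2B, SESN1, TIGAR and ZMAT3) did, beside 11.1% of all genes tested. The widest differences (shCHAF1B-#2 minus shCHAF1B-#1) were -0.26 for BTG2 (95% interval -0.48 to -0.04), -0.24 for GDF15 (-0.51 to 0.03) and 0.20 for CCNG1 (0.10 to 0.30), with a lowest adjusted p of 0.42 among the 32. Without shCHAF1B-#1 replicate 3 the difference was -0.08 for BTG2 (-0.20 to 0.04), -0.30 for GDF15 and 0.19 for CCNG1, and none of the 32 passed. A passing call for ZMAT3, TIGAR, FBXO22, GDF15 or ANKRA2 under shCHAF1B-#1 alone, or for BTG2 under shCHAF1B-#2 alone, is therefore not shown to be a difference between hairpins, and neither are the hairpins shown to act alike.

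Levels between the 32 genes were compared per length, as mean CPM per kb of exon in shGFP. Exon length was the union of the exons of all annotated transcripts, which can exceed that of an expressed transcript, so the order depends on the annotation. PERP was the highest at 198.9 CPM per kb, followed by CCNG1 at 126.9, EI24 at 83.5, TNFRSF10B at 80.3 and TRIAP1 at 58.5. The median of the 32 was 17.8 CPM per kb, with POLH just above it at 17.9 and PLK2 just below it at 17.65, less apart than the libraries of either gene. The lowest were ANKRA2 at 6.68, DRAM1 at 6.13, PPM1D at 5.67 and TP53INP1 at 4.45 CPM per kb. The genes with the largest changes thus lay at opposite ends of this order: CCNG1 was second, whereas DRAM1 and TP53INP1 were among the lowest 4.

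Other genes of the pathway moved in both directions as well. TP63, the family member of basal epithelium, went from 79.7 CPM in shGFP to 71.85 under shCHAF1B-#1 (-0.15, adjusted p = 0.013) and 77.6 under shCHAF1B-#2 (-0.04, adjusted p = 0.51). TP73 stayed low, at 0.848 to 2.24 CPM over the libraries, and passed under shCHAF1B-#1 (0.94, adjusted p = 3.6e-03) and not under shCHAF1B-#2 (0.35, adjusted p = 0.27). Of 40 further p53 targets, 15 rose and 17 fell under shCHAF1B-#1 (median -0.07), and 15 rose and 16 fell under shCHAF1B-#2 (median -0.05), beside the 27.9%, 25.2%, 26.7% and 24.6% of all genes tested that rose and fell under each. Without shCHAF1B-#1 replicate 3, 13 rose and 13 fell under that hairpin (median -0.04). Among them the largest rises by the smaller of both changes were those of TNFRSF10D, a decoy receptor for TRAIL (1.43 and 1.38), PMAIP1, the BH3-only protein NOXA (1.35 and 1.40), FUCA1, a lysosomal fucosidase (1.06 and 1.04), and PRDM1, a transcriptional repressor (0.60 and 0.60). TNFRSF10D went from 116.8 CPM to 314.8 and 303.8 CPM, and PMAIP1 from 14.0 to 35.8 and 36.9 CPM. The receptor TNFRSF10A did not pass (-0.04 and -0.03, adjusted p = 0.57 and 0.62), nor did the receptor EDA2R (adjusted p = 0.96 and 0.84). The largest falls were those of PANK1, a pantothenate kinase (-1.21 and -1.08), TRIM22, a tripartite motif protein (-0.81 and -0.82), PIDD1, a scaffold that activates caspase-2 (-0.78 and -0.89), and NINJ1, a protein of membrane rupture (-0.71 and -0.80). Chosen after their values were seen, CDKN1A, the cell cycle inhibitor p21, rose from 500.7 CPM to 804.4 and 758.0 CPM (0.68, adjusted p = 4.4e-07, and 0.60, adjusted p = 1.7e-06), and BAX, the pore-forming death effector, fell from 83.0 to 54.8 and 52.85 CPM (-0.60, adjusted p = 1.2e-06, and -0.65, adjusted p = 6.5e-07).

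Of 20 p53 regulators 19 were tested, and 3 rose and 8 fell under shCHAF1B-#1 (median -0.11), and 3 rose and 7 fell under shCHAF1B-#2 (median -0.12), beside 27.9% and 25.2%, and 26.7% and 24.6%, of all genes tested. Without shCHAF1B-#1 replicate 3, 3 rose and 9 fell under that hairpin. MDM4, the partner of MDM2 that masks the activation domain of p53, stood at 34.5 CPM in shGFP and did not pass (0.01, adjusted p = 0.96, and 0.06, adjusted p = 0.54). TP53BP1, a repair scaffold that binds p53, rose (0.41 and 0.36), although 28.7% of its exon bases overlap a neighbour, and so did the ubiquitin ligase COP1 (0.35 and 0.39). The falls included the checkpoint kinase CHEK2 (-0.78 and -0.63), the kinase PRKDC (-0.29 and -0.30) and the ribosomal protein RPL11, which inhibits MDM2 (-0.29 and -0.28). For PRKDC the groups overlapped, with 508.3 CPM in shCHAF1B-#2 replicate 2 against 499.8 in shGFP replicate 3 (adjusted p = 0.028 and 0.025 by edgeR). For RPL11 they did not (adjusted p = 0.0012 and 0.0017).

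**Figure D5:**
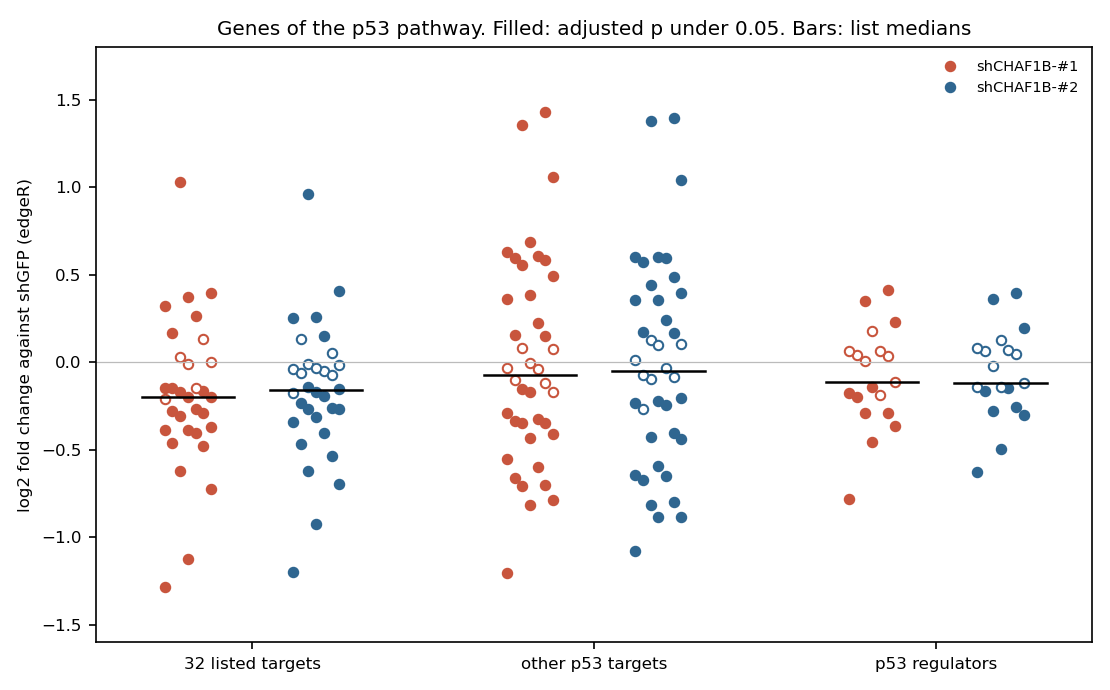
Log2 fold change against shGFP (y axis, edgeR) of the 32 p53 targets, 40 further targets and 19 regulators, with 1 point per gene and a bar at each list's median, for shCHAF1B-#1 (red) and shCHAF1B-#2 (blue), which share the control libraries. Filled points have an adjusted p under 0.05, and under shCHAF1B-#1 the 32 reach from -1.28 to 1.03 and the further targets from -1.21 to 1.43.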

How the data were processed

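RNA was prepared with the TruSeq kit, version 2, per the labels' protocols, which does not mark strand. The authors deposited raw counts per gene. Per the submitters' processing notes the tools were STAR 2.5.3a, HTSeq 0.8.0 and DESeq2 1.18.1, with hg38 and mm10 as builds, none with a stated role. Identifiers were matched to GENCODE release 29 without version: 26149 matched and 37 did not. The gene with the lowest total had 7 counts. Genes were filtered with filterByExpr (minimum count 10, minimum total 15, proportion 0.7), scaled with TMM and tested in 1 fit of all 9 libraries with edgeR 4.0.16 (R 4.3.3), quasi-likelihood, Benjamini-Hochberg over 16235 genes, adjusted p under 0.05. SE values come from that fit. The 32 genes, their roles and the other lists were chosen with earlier results of these data known. All 32 were named, as were up to 4 passing genes per direction of each other list, by the size of the smaller change, plus TP63 and MDM4. Some genes these lists hold are not reported here. Steps were tested on simulated data. Alternatives were RLE or upper-quartile scaling, DESeq2 1.42.0, no filter, 1 CPM in 3 libraries, only the compared groups, a replicate block, a 1.5-fold minimum, and leaving out each library. Leaving out shCHAF1B-#1 replicate 3 for the other lists and for counts of libraries that do not overlap was added after seeing the data. Counting error alone does not set the precision: replicates differed by more.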

Additional observations from a re-analysis of the deposited data

How the results depend on the processing

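Over the 16 alternatives that kept the threshold of an adjusted p alone, none of the 48 passing values of the 32 genes against shGFP changed sign, 11 of them no longer passed in at least 1 alternative, and 3 other values came to pass. Signs did change among values that did not pass: AEN, STEAP3 and SUSD6 under shCHAF1B-#1, and FBXO22, PERP, PHLDA3 and STEAP3 under shCHAF1B-#2. Under DESeq2, PPM1D (adjusted p = 0.146 and 0.0926), XPC (0.064 and 0.0599) and ANKRA2 under shCHAF1B-#1 (0.118) no longer passed, and 17 and 15 genes fell. A minimum change of 1.5-fold left 1 risen and 4 fallen genes under each hairpin, and the same 1 and 4 in both tests, against 5 and 16 without it. Leaving out each library in turn gave 4 to 6 risen and 17 to 21 fallen under shCHAF1B-#1, 4 to 5 risen and 15 to 18 fallen under shCHAF1B-#2, and 0 between hairpins.

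The labels number replicates 1 to 3 in each group. Deviations from the group means correlated between -0.138 and 0.1 for libraries with the same number, and between -0.217 and 0.22 for different numbers. No shift shared by number was seen, but with 3 libraries a group this cannot exclude that equal numbers shared a preparation. With the replicate number as a block, 6 genes rose and 20 fell under shCHAF1B-#1 and 5 rose and 17 fell under shCHAF1B-#2. PPM1D under shCHAF1B-#1 then no longer passed (adjusted p = 0.0632) and BTG2 did (adjusted p = 0.0499). The lowest count of the 32 genes was 245, and whether depth limited their calls was not tested.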
